A study of Homo sapiens with 4 samples.

Results

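The genes described here are 10 genes of the circadian clock: BHLHE40, BHLHE41, CLOCK, PER1, PER2, PER3, CRY1, CRY2, NR1D1 and NR1D2. They were taken by symbol from the 20286 genes of the deposited tables, and all 10 were found. The choice was made with the difference between the groups already known, so their CPM values and fold changes between the groups are given as a description, without p-values. The libraries came from HLE, an established cell line grown from a human hepatocellular carcinoma. There were 2 libraries of cells stably expressing CYR61 (current symbol CCN1, a secreted CCN-family protein that associates with the cell matrix) and 2 of cells stably carrying the empty vector. Both kinds of cell were kept in the same medium with fetal bovine serum and antibiotics, without further treatment. The promoter and vector that carry CYR61 are not given in the labels. Per the series description the replicates of a group were separate cultures drawn from its whole stably expressing population, so the spread between them is that between cultures and not between separately made lines. The sources used here give no time of collection, change of medium or synchronisation of the cultures. Clock transcripts cycle over the day in synchronised cells, so a difference in phase and a difference in level cannot be told apart here. In bulk RNA, fewer cells expressing a gene and less RNA per cell cannot be told apart either.

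The mammalian clock is a feedback loop of transcription. CLOCK, or its close relative NPAS2, pairs with BMAL1 and activates genes through E-boxes, and the PER and CRY proteins made from such genes then inhibit that pair. In a second loop the nuclear receptors NR1D1 and NR1D2 (REV-ERB alpha and beta) repress BMAL1 through ROR elements, where ROR receptors activate. BHLHE40 and BHLHE41 (DEC1 and DEC2) are basic helix-loop-helix repressors that bind E-boxes themselves, and BHLHE40 is also known as a gene induced by low oxygen and by TGF-beta.

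The E-box, with the letters CACGTG, links the members of the loop, so the matches next to their starts are shown first. RefSeq windows (GRCh38.p14) from 250 bases before to 50 bases after each annotated start were searched on both strands. All 10 genes matched the table, with 14 windows between them, some of which overlap. An E-box stood in 4 of the 14 windows, belonging to 4 of the 10 genes, with 2 matches in NR1D2, and in 7.26% of the 35116 windows of all genes. The D-box (TTATGTAA or TTACGTAA), bound by DBP, TEF, HLF and NFIL3, stood in 3 of the 14 windows, of PER2, PER3 and NR1D2, and in 1.01% of all windows. For these windows of PER2 and PER3, the first bases after the start were not found in GENCODE transcripts. The other window of PER3, whose first bases were found, held no D-box. The ROR element (TAGGTCA or TGGGTCA) stood in 3 of the 14 windows, of CLOCK, CRY2 and NR1D2, and in 5.69% of all. A single window of NR1D2 held both E-boxes, the D-box and the ROR element. The cAMP response element TGACGTCA was found in none of the 14 windows and in 1.85% of all. These motifs do not share letters in the matches, and a match describes only the letters. Relative to the annotated start, the E-box of BHLHE40 begins at base -245, that of PER1 at -173 and that of BHLHE41 at -48. The E-boxes of BHLHE40 and BHLHE41 and the ROR element of BMAL1 lie inside GENCODE exons of these genes, so these motifs are part of annotated transcripts, and the motifs shown for PER1, NR1D2 and PER2 lie inside the gene but outside its exons. The stretches below run 5′ to 3′ on the strand of the gene, with the motif in capitals. They lie at chr3:4979187-4979216 (plus strand, BHLHE40), chr12:26125068-26125097 (minus, BHLHE41), chr17:8152560-8152589 (minus, PER1), chr3:23945954-23945983 and chr3:23946004-23946033 (plus, NR1D2) and chr2:238288595-238288624 (minus, PER2). The last stretch, at chr11:13277808-13277837 (plus), is the ROR element of BMAL1, shown because BMAL1 is the gene that NR1D1 represses and its level is given below. The first bases after the start of that BMAL1 window were not found in GENCODE transcripts either.
BHLHE40 E-box: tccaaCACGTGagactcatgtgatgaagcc
BHLHE41 E-box: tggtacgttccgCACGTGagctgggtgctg
PER1 E-box: agcacccaggtcCACGTGcgcccgtgtgtg
NR1D2 E-box, upstream: ggcgggcggggaCACGTGaggccgctcggc
NR1D2 E-box, downstream: gggccgcagggaCACGTGggggcgggggcg
PER2 D-box: cccgctgcggcTTACGTAAccgccgccggc
BMAL1 ROR element: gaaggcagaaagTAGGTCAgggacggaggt

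The 4 libraries held 16186988 to 21588822 estimated counts. As a check of the labels, CYR61 (CCN1) was at 8091 and 8620 CPM in the CYR61 libraries, against 221.5 and 218.3 CPM in the Vector libraries. The keratin genes KRT8 and KRT18 and the mesenchymal gene VIM ran from 1055 to 3243 CPM, while the epithelial genes EPCAM and CDH1 had 6 to 56 counts. Of 6 hepatocyte genes, ALB and TTR were at 0 counts in all 4 libraries and the 6 summed to 4.61 and 4.76 CPM in the CYR61 libraries and 6.85 and 5.12 CPM in the Vector libraries, mostly HNF4A. Of 3 leukocyte genes, PTPRC and CD3E had at most 1 count in any library, and CD68 had 48.1 and 53.3 CPM in the CYR61 libraries and 67.2 and 62.7 CPM in the Vector libraries. Of 3 endothelial genes, PECAM1 had at most 1 count, and the 3 summed to 2.37 and 2.51 CPM in the CYR61 libraries and 2.07 and 1.81 CPM in the Vector libraries. The 4 fibroblast genes summed to 34.8 and 36.5 CPM in the CYR61 libraries and 47 and 38.6 CPM in the Vector libraries, mostly COL1A1 and PDGFRB, with COL1A2 at no more than 1 count. The part of these levels in the results below was not tested. Of 12698 genes tested with edgeR, 811 had an adjusted p below 0.05, termed called below, with 232 higher and 579 lower in CYR61 cells. The count was 495 without Vector 1 and 1325 without CYR61 2, and 3566 (1886 higher, 1680 lower) with the trend of each library with GC content removed. Libraries of the same group also differed with GC content: over 10364 genes, not independent of one another, Spearman's rho with GC content was -0.78 for CYR61 1 minus CYR61 2 and -0.73 for Vector 2 minus Vector 1.

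All 10 clock genes passed the filter on low counts. Of these, 3 were called, BHLHE40, NR1D1 and PER1, all lower in CYR61 cells, and 0 were called higher. Over all genes tested, 6.39% were called, 4.56% lower and 1.83% higher. The median log2 fold change, CYR61 minus Vector, was -0.35 over the 10 genes and -0.01 over all genes tested. In 8 of the 10 genes both CYR61 libraries lay below both Vector libraries, as in 27.7% of all genes tested, and CLOCK and CRY1 overlapped between the groups. Since the genes were chosen on this contrast, nothing is read from these counts. The 10 genes together summed to 312 and 336 CPM in the CYR61 libraries, against 560 and 545 CPM in the Vector libraries. Without BHLHE40 the sums were 213 and 221 CPM in the CYR61 libraries and 300 and 302 CPM in the Vector libraries.

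**Figure D1:**
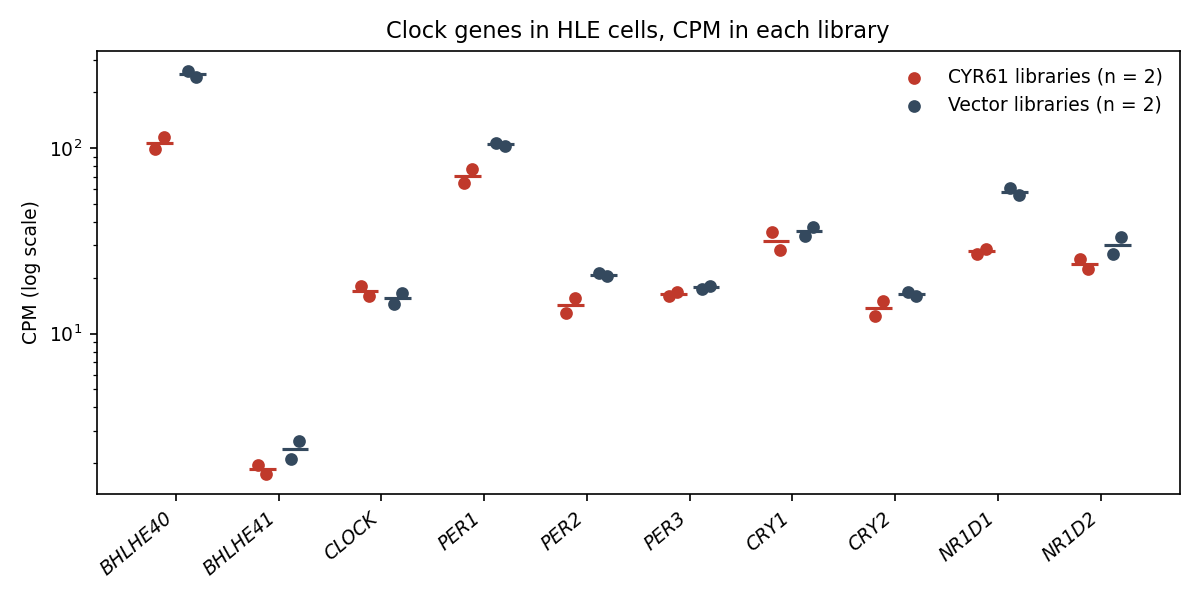
CPM (log axis) of the 10 clock genes in each library, with CYR61 libraries in red, Vector libraries in dark blue and a bar at the mean of the 2. BHLHE40, PER1 and NR1D1 stand apart between the groups by the widest margins, while CLOCK and CRY1 overlap.

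Of the E-box repressors, BHLHE40 was the most abundant of the 10 genes and the most changed. BHLHE40 (ENSG00000134107, hg38 chromosome 3, 4979116 to 4985323, plus strand) had 98.9 and 115 CPM in the CYR61 libraries, against 260.6 and 242.9 CPM in the Vector libraries. The estimated counts were 2126 and 1835 in the CYR61 libraries and 4909 and 5363 in the Vector libraries. Both CYR61 libraries were thus far below both Vector libraries, and the gap between the groups was several times that within either. The log2 fold change was -1.24 (SE 0.12), 2.36-fold lower, and it ranked 235 from the lowest of the 12698 genes tested. BHLHE41 (ENSG00000123095, chromosome 12, 26120026 to 26125127, minus strand), the paralog, was barely present, with 1.95 and 1.75 CPM in the CYR61 libraries and 2.12 and 2.63 CPM in the Vector libraries. These values rest on 42 and 28 counts in the CYR61 libraries and 40 and 58 in the Vector libraries, and its log2 fold change of -0.36 (SE 0.30) was not called. Per kilobase of exon, the level of BHLHE40 was 52.1 and 67.4 times that of BHLHE41 in the CYR61 libraries, against 126 and 95.1 times in the Vector libraries.

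Among the period genes, whose proteins inhibit CLOCK and BMAL1, PER1 and PER2 were lower by a similar amount and PER3 was close to level. PER1 (ENSG00000179094, chromosome 17, 8140472 to 8156506, minus strand) had 64.8 and 76.8 CPM in the CYR61 libraries, against 106.9 and 102.3 CPM in the Vector libraries, with no overlap. Its log2 fold change was -0.56 (SE 0.13). The call of PER1 was lost without CYR61 1 (log2 fold change -0.43), without Vector 1 (-0.53) and without Vector 2 (-0.59). PER2 (ENSG00000132326, chromosome 2, 238244038 to 238290102, minus strand) had 13.0 and 15.6 CPM in the CYR61 libraries and 21.2 and 20.4 CPM in the Vector libraries. The groups did not overlap, and the log2 fold change of -0.54 (SE 0.17) was not called. The ratio of PER1 to PER2 per kilobase hardly moved between libraries, at 4.91 and 4.84 in the CYR61 libraries and 4.96 and 4.93 in the Vector libraries. PER3 (ENSG00000049246, chromosome 1, 7784320 to 7845177, plus strand) had 16.05 and 16.79 CPM in the CYR61 libraries against 17.36 and 18.12 CPM in the Vector libraries, a log2 fold change of -0.11 (SE 0.16) that was not called. The level of PER1 per kilobase was accordingly 4.67 and 5.29 times that of PER3 in the CYR61 libraries, against 7.12 and 6.53 times in the Vector libraries.

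The cryptochrome genes, which encode the partners of the PER proteins and the stronger inhibitors of the loop, were not called. CRY1 (ENSG00000008405, chromosome 12, 106991364 to 107093829, minus strand) had 35.1 and 28.2 CPM in the CYR61 libraries and 33.4 and 37.8 CPM in the Vector libraries. The groups overlapped, with CYR61 2 lowest and Vector 2 highest (log2 fold change -0.17, SE 0.16). CRY2 (ENSG00000121671, chromosome 11, 45847118 to 45883248, plus strand) had 12.5 and 14.9 CPM in the CYR61 libraries against 16.72 and 15.99 CPM in the Vector libraries, a log2 fold change of -0.26 (SE 0.17). CLOCK (ENSG00000134852, chromosome 4, 55427903 to 55547138, minus strand), the activator among the 10, had 18.1 and 15.9 CPM in the CYR61 libraries and 14.5 and 16.6 CPM in the Vector libraries. It overlapped between the groups and was the only member with a log2 fold change above 0 (0.13, SE 0.17).

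Of the REV-ERB genes, NR1D1 (ENSG00000126368, chromosome 17, 40092787 to 40100725, minus strand) had 26.7 and 28.8 CPM in the CYR61 libraries, against 60.8 and 55.6 CPM in the Vector libraries. Both CYR61 libraries were far below both Vector libraries, and the log2 fold change was -1.07 (SE 0.13), 2.1-fold lower. NR1D1 was also the only member whose deposited counts were not whole, in all 4 libraries (573.8 and 458.99 in the CYR61 libraries, 1144.62 and 1226.87 in the Vector libraries). Its exons share 263 bases, 9.49% of its exon length, with THRA, the thyroid hormone receptor alpha gene on the opposite strand, whose counts were not whole either. In each library the fractions of the NR1D1 and THRA counts added to a whole number. The sources used here do not state whether the libraries kept strand, so reads of the shared stretch cannot be told apart and the value of NR1D1 is uncertain to that extent. THRA had 90.2 and 106.1 CPM in the CYR61 libraries and 119.1 and 106.6 CPM in the Vector libraries (log2 fold change -0.20, SE 0.13, not called). The sum of NR1D1 and THRA, which was not planned, was 117 and 135 CPM in the CYR61 libraries and 180 and 162 CPM in the Vector libraries. The log2 ratio of its group means, CYR61 over Vector, was -0.44, and THRA made up most of the sum in each library. NR1D2 (ENSG00000174738, chromosome 3, 23945260 to 23980618, plus strand) had 25.1 and 22.2 CPM in the CYR61 libraries and 26.8 and 33.0 CPM in the Vector libraries. The groups did not overlap but came close, and the log2 fold change of -0.34 (SE 0.16) was not called. The level of NR1D1 per kilobase was 2.23 and 2.72 times that of NR1D2 in the CYR61 libraries, against 4.76 and 3.54 times in the Vector libraries.

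Exons of other members also overlap annotated neighbours. PER3 shares 868 bases with UTS2 on the opposite strand, which had 0 counts in the 4 libraries. BHLHE41 shares 162 bases with SSPN, which had 5 to 10 counts a library, and CLOCK shares 76 bases with TMEM165, at 36.4 to 48 CPM. PER1 shares 30 bases on its own strand with ENSG00000263620, at 4.65 and 6.52 CPM in the CYR61 libraries and 9.93 and 6.79 CPM in the Vector libraries. The counts of these 4 members were whole in every library.

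Divided by exon length, BHLHE40 also ranked first. It stood at 27.9 ± 2.96 CPM per kilobase in CYR61 cells and 65.6 ± 3.25 in Vector cells (mean ± SD, n = 2 each). In Vector cells NR1D1 (21.0 ± 1.33) and PER1 (14.9 ± 0.457) followed, then CRY1 (7.03 ± 0.613), NR1D2 (5.14 ± 0.75), PER2 (3.02 ± 0.0819), CRY2 (2.64 ± 0.0834), PER3 (2.19 ± 0.0664), CLOCK (1.32 ± 0.125) and BHLHE41 (0.602 ± 0.0903), with no library of a gene reaching the next gene in the order. In CYR61 cells PER1 (10.1 ± 1.21) and NR1D1 (10.0 ± 0.524) overlapped, as did CRY2 (2.21 ± 0.279), PER2 (2.08 ± 0.27) and PER3 (2.03 ± 0.0647). BHLHE40 made up 40.4% and 43.3% of the summed level per kilobase of the 10 genes in the CYR61 libraries, against 53.9% and 52.3% in the Vector libraries. The places of PER1 and NR1D1 depend on the length used: with the longest transcript in place of all exons, PER1 stood at 15 CPM per kilobase in CYR61 cells and 22.2 in Vector cells, above NR1D1 at 10.0 and 21.0 in the same groups. On that length CRY2, at 3.26 CPM per kilobase in CYR61 cells and 3.89 in Vector cells, also stood above PER2, at 2.24 and 3.25 in the same groups, and PER3, at 2.60 in CYR61 cells, above PER2 there.

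**Figure D2:**
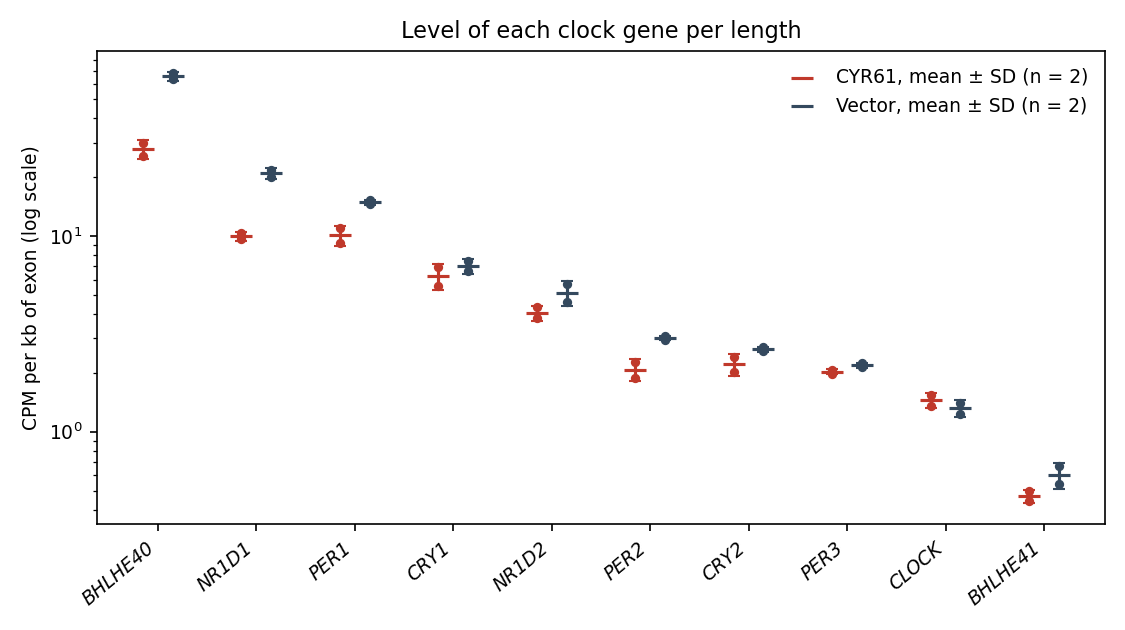
Level of each clock gene in CPM per kilobase of exon (log axis), ordered by the Vector mean, with CYR61 in red left of Vector in dark blue. Points are libraries, and bars are the mean ± SD of 2. BHLHE40 leads in both groups, and BHLHE41, its paralog, is last.

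Differences within a group followed the GC content of the members' transcripts, which ran from 37.2% (CLOCK and CRY1) to 62.7% (PER1). Over the 10 genes, Pearson's r with GC content was -0.84 for the log2 difference CYR61 1 minus CYR61 2 and -0.77 for Vector 2 minus Vector 1. The difference CYR61 minus Vector gave -0.61, and -0.51 once the GC trend of each library was removed. By Spearman's rho, before that removal, it gave -0.72 over the 10 genes, which were chosen with this difference known. Over the 10364 genes described above, the rho of CYR61 minus Vector with GC content was -0.17. The points share the libraries and their base composition, and the values are a description. CRY1, CLOCK and NR1D2, at 37.2% to 38.5% GC, were higher in CYR61 1 than in CYR61 2 and in Vector 2 than in Vector 1, while PER1, CRY2 and NR1D1, at 57.0% to 62.7%, were lower. With the GC trend removed, the log2 fold changes were -1.20 for BHLHE40, -0.98 for NR1D1 and -0.46 for PER1, and PER2 (-0.50) and NR1D2 (-0.39) were called as well. That made 5 of the 10 genes called, all lower, where 28.1% of all genes tested were called, 13.2% lower and 14.9% higher.

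**Figure D3:**
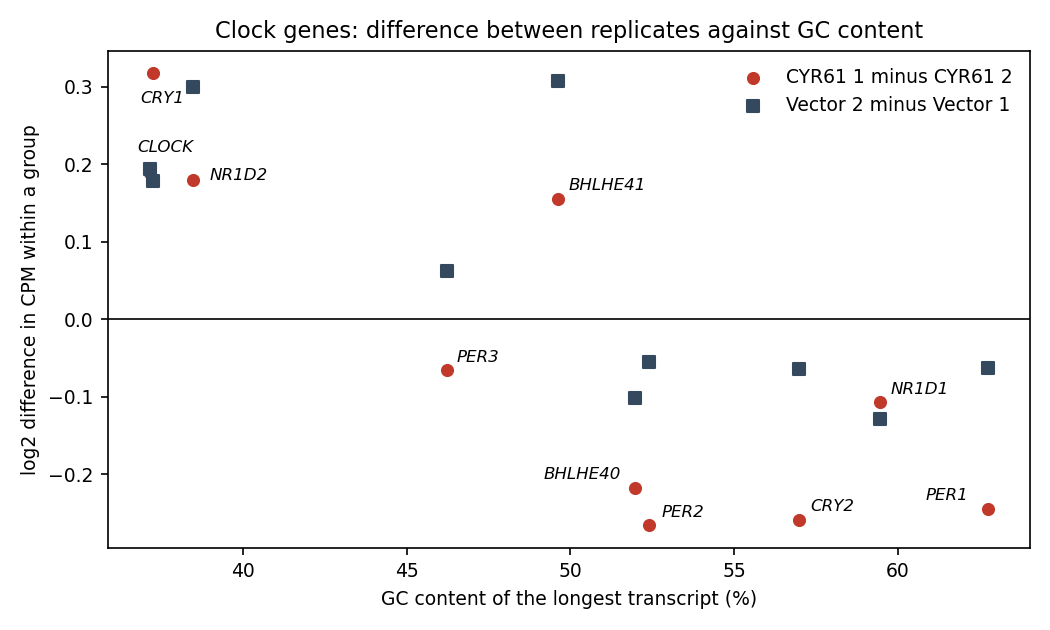
Log2 difference in CPM between the 2 libraries of a group (y axis) against the GC content of the longest transcript in percent (x axis) for the 10 clock genes, with CYR61 1 minus CYR61 2 as red circles and Vector 2 minus Vector 1 as blue squares. The GC-poor genes CLOCK, CRY1 and NR1D2 lie above 0 and the GC-rich genes PER1, NR1D1 and CRY2 below 0 in both groups.

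**Figure D4:**
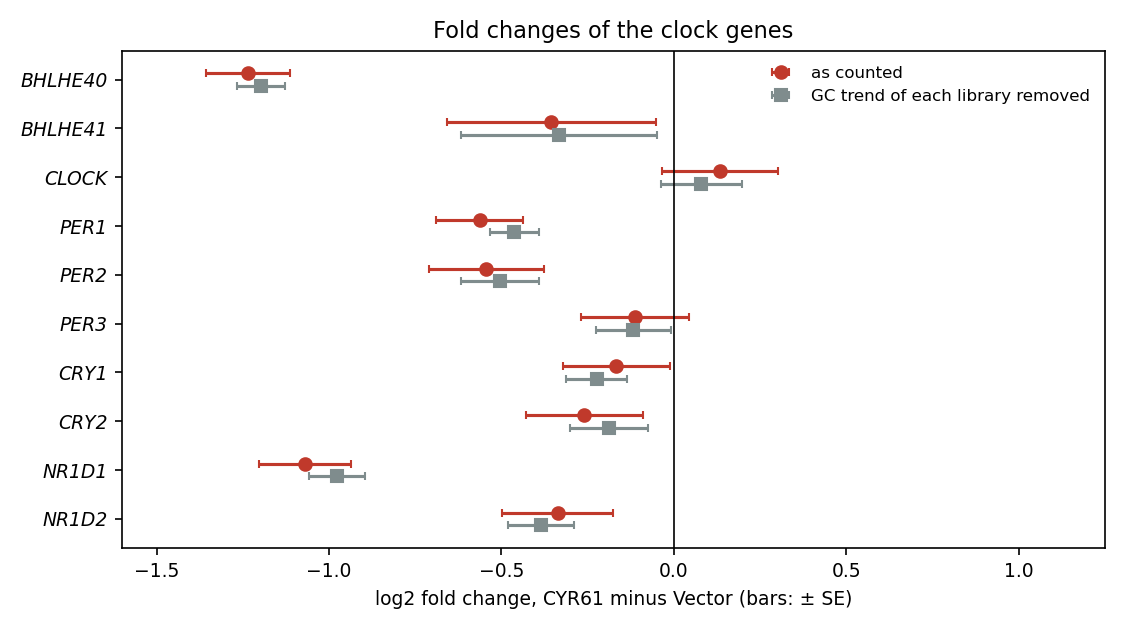
Log2 fold change, CYR61 minus Vector (x axis, bars ± SE, 2 libraries a group), of the 10 clock genes from edgeR as counted (red circles) and with the GC trend of each library removed (grey squares). BHLHE40 (-1.24 and -1.20) and NR1D1 (-1.07 and -0.98) are lowest under both, and CLOCK is the only gene above 0.

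Outside the 10, the rest of the clock network was read from 7 lists of genes grouped by function. Of 74 genes, 69 were tested, 9 fell and 1 rose, or 14.5% called where 6.39% of all genes tested were called, and their median log2 fold change was -0.20. The lists were chosen with earlier results of these data known, so nothing is read from the shares called. The adjusted p-values of list genes carry the same limit. Among the other core loop factors, 1 of 6 tested members fell and 0 rose, with a median of -0.80. That member was BMAL1, the partner of CLOCK and NPAS2 and the target of REV-ERB repression. BMAL1 (ENSG00000133794) had 12.5 and 12.3 CPM in the CYR61 libraries, against 22.5 and 24.8 CPM in the Vector libraries. Its groups were well apart, with a log2 fold change of -0.93 (SE 0.16, adjusted p = 0.00787 in edgeR). BMAL1 and NR1D1 were thus both lower in CYR61 cells. Its paralog BMAL2 overlapped between the groups, at 14.3 and 9.59 CPM in the CYR61 libraries and 12.4 and 15.4 CPM in the Vector libraries. NPAS2, chosen after its values were seen, had 114.9 and 124.8 CPM in the CYR61 libraries and 153.6 and 145.5 CPM in the Vector libraries (log2 fold change -0.32, SE 0.11, adjusted p = 0.124 in edgeR). Per kilobase, NPAS2 was 5.96 and 7.38 times as abundant as CLOCK in the CYR61 libraries and 9.98 and 8.26 times in the Vector libraries, so CLOCK was the scarcer of the paired activators. The ROR receptor genes were scarce: RORA had 14 and 4 counts in the CYR61 libraries and 24 and 27 in the Vector libraries, and RORB had 0 and 2 counts in the CYR61 libraries and 11 and 12 in the Vector libraries. Neither was called. CIART, another repressor of the loop, was not tested, with 1 to 3 counts a library.

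The output factors that act through D-boxes, DBP, TEF, HLF and NFIL3, were not called, and the median of the 4 was -0.44. NFIL3, the repressor of the set, had the smallest p, at 20.1 and 18.7 CPM in the CYR61 libraries and 23.99 and 29.99 CPM in the Vector libraries (log2 fold change -0.48, SE 0.17, adjusted p = 0.117 in edgeR). NFIL3 was called lower with the GC trend removed (-0.48). DBP, often read as a marker of clock output, overlapped between the groups at 6.14 and 9.33 CPM in the CYR61 libraries and 11.9 and 8.47 CPM in the Vector libraries. Its counts were not whole (131.7 and 148.6 in the CYR61 libraries, 224.5 and 186.7 in the Vector libraries). The reason was not tested, so its value is uncertain. Of 9 tested clock-controlled output genes, 4 fell and 0 rose (44.4% called, against 6.39% of all genes tested), with a median of -0.25. The cell cycle inhibitor gene CDKN1A had 26.1 and 25.9 CPM in the CYR61 libraries, against 86.4 and 82.4 CPM in the Vector libraries (log2 fold change -1.70, SE 0.13, adjusted p = 0.000103 in edgeR). TSC22D3, encoding the glucocorticoid-induced leucine zipper protein, fell by 1.14 on the log2 scale and the transcription factor gene KLF10 by 0.84. Each of these 3 genes is also controlled by signals outside the clock. The other 5 tested, such as NAMPT (-0.23), WEE1 (-0.20) and NOCT (0.11), were not called. Of those named, NAMPT (-0.29) and WEE1 (-0.26) were called lower with the GC trend removed.

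Of 16 kinases, ubiquitin ligases and other enzymes acting on clock proteins, 1 fell and 0 rose (6.25% called, against 6.39% of all genes tested), with a median of -0.14. CSNK1E, a kinase that phosphorylates PER proteins, had 139.0 and 155.8 CPM in the CYR61 libraries, against 213.8 and 204.6 CPM in the Vector libraries (log2 fold change -0.51, SE 0.11, adjusted p = 0.0289 in edgeR). This call was lost without CYR61 1 (adjusted p = 0.182), without Vector 1 (0.168) and without Vector 2 (0.0932). Its paralog CSNK1D had a log2 fold change of -0.15 and was not called. Of 16 partners and cofactors, 1 rose and 0 fell, again 6.25%, with a median of 0.14. SFPQ, an RNA-binding protein that joins PER complexes, had 445.0 and 445.8 CPM in the CYR61 libraries, against 292.0 and 295.9 CPM in the Vector libraries (log2 fold change 0.60, SE 0.11, adjusted p = 0.009 in edgeR).

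Of 11 factors that act upstream of PER1 or BHLHE40, 1 fell and 0 rose (9.09% called, against 6.39% of all genes tested), with a median of -0.20. EPAS1, encoding the low-oxygen factor HIF-2 alpha, had 243.4 and 252.3 CPM in the CYR61 libraries, against 418.1 and 428.8 CPM in the Vector libraries (log2 fold change -0.77, SE 0.11, adjusted p = 0.00259 in edgeR). HIF1A (-0.26), ARNT (-0.20), CREB1 (-0.17), NR3C1 (-0.18), SMAD3 (-0.20) and SMAD4 (-0.06) were not called. Of these, HIF1A (-0.31) and NR3C1 (-0.23) were called lower with the GC trend removed. SRF, the serum response factor gene, was not called either, at 93.3 and 106.4 CPM in the CYR61 libraries and 83.6 and 80.3 CPM in the Vector libraries (log2 fold change 0.29, and called higher at 0.38 with the GC trend removed). Among the relatives of BHLHE40 with the same bHLH-Orange arrangement, 2 of 7 tested genes fell and 0 rose (28.6% called), with a median of -0.43. The Notch target genes HES1 and HEY1 were these 2. HES1 had 2.74 and 3.01 CPM in the CYR61 libraries and 6.37 and 8.38 CPM in the Vector libraries (log2 fold change -1.36, SE 0.24, adjusted p = 0.00896 in edgeR). HEY1 had 8.05 and 7.08 CPM in the CYR61 libraries and 17.0 and 17.1 CPM in the Vector libraries (log2 fold change -1.17, SE 0.17, adjusted p = 0.00365 in edgeR). Their relative HEY2 was higher in both CYR61 libraries, at 2.19 and 2.88 CPM, than in the Vector libraries, at 0.902 and 1.27 CPM, and was not called (log2 fold change 1.20, SE 0.35, adjusted p = 0.0719 in edgeR), though it was with the GC trend removed (1.20). With the GC trend removed, 10 of the 69 network genes outside the 10 were called higher and 27 lower, where 28.1% of all genes tested were called.

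**Figure D5:**
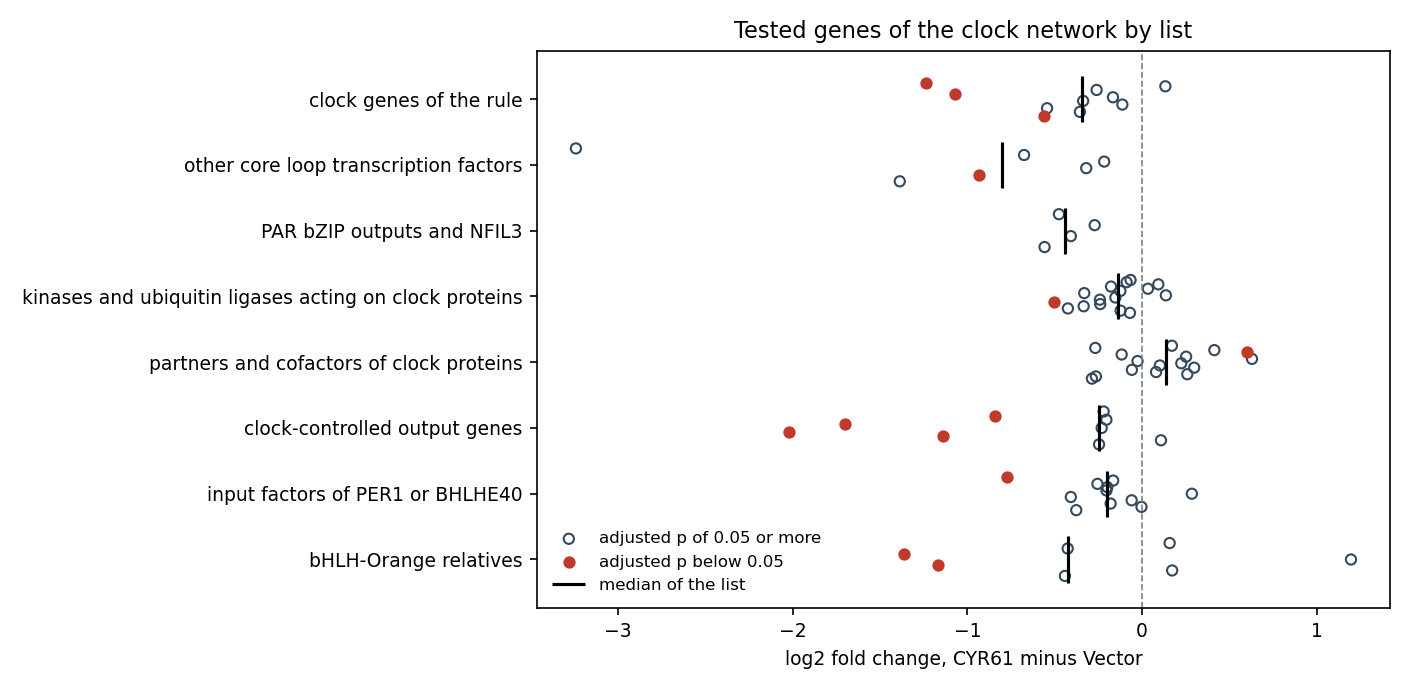
Log2 fold change, CYR61 minus Vector (x axis), of each tested gene of the 10 clock genes (top row) and of 7 further clock network lists (rows below), with filled red points for an edgeR adjusted p below 0.05, open points for the others and a black bar at the median of the list. The output and bHLH-Orange lists hold called genes far below 0, and only the list of partners and cofactors has its median above 0.

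The genes most like BHLHE40 in pattern were sought among 9173 others of at least 10 CPM, by the Euclidean distance between log2 CPM over the 4 libraries, each gene centred on its own mean. The nearest were GPT2, encoding a mitochondrial alanine transaminase (distance 0.0825), CBS, encoding cystathionine beta-synthase (0.104), DUSP5, a MAP kinase phosphatase gene (0.106), SH3BP2, an adaptor protein gene (0.106), and CYP26B1, encoding a retinoic acid hydroxylase (0.109). CBS is uncertain because a near-identical copy can share its reads. GPT2 had 29.8 and 35.4 CPM in the CYR61 libraries and 84.7 and 74.2 CPM in the Vector libraries, the same order of libraries as BHLHE40. All 5 genes shared this order, which a small distance favours. Of the other clock genes of that abundance, NR1D1 ranked 31 in nearness to BHLHE40 (distance 0.19), BMAL1 114 (0.394), PER1 358 (0.672) and PER2 393 (0.696), while CLOCK ranked 6300 (1.41). The likeness rests on 4 libraries and mostly on the difference between the groups. That difference was known when the clock genes were chosen, so nothing is read from their ranks. The 5 nearest genes had 52.95% to 57.83% GC, and differences within a group also followed GC content.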

How the data were processed

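RNA sequencing of 2 CYR61 and 2 Vector cultures of HLE cells was deposited by the authors as estimated counts per gene, in a file for each culture that lists 20286 Ensembl identifiers. Per the submitters' processing notes, the tools were TopHat2 2.1.1, Cuffdiff 1.3.0 and Cufflinks 2.2.1 and the build hg38. Which of them, if any, wrote the counts, with which annotation and strand setting, is not stated in the sources used here. Between 11.2% and 12.0% of values per library were not whole.

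Counts were rounded, filtered with filterByExpr, scaled by TMM and fitted on group with edgeR 4.0.16 (R 4.3.3, quasi-likelihood, Benjamini-Hochberg over 12698 genes, threshold 0.05). Differences are CYR61 minus Vector, and the SE is the absolute log2 fold change over the square root of F. CPM uses TMM-scaled library sizes, and exon lengths, positions and GC content (longest transcript) come from GENCODE 29 (GRCh38). The GC trend was a natural spline with 5 degrees of freedom per library over genes of at least 5 CPM, used as an offset. Symbols matched 20228 identifiers. Alternatives used DESeq2 1.42.0, limma 3.58.1 (voom), other scalings and filters, the replicate number as a block and each library left out. Scripts were tested on simulated data. The planned identity of proteins was not analysed here.

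The members and lists were chosen with earlier results of these data known. Named genes were the 10 members, CYR61, up to 4 called genes of smallest adjusted p per list or else the 1 of smallest p, overlapping neighbours and the 5 genes nearest BHLHE40 in pattern. Further list genes named with values were chosen after these were seen. Values of some single list genes are not reported here, while the counts and medians of the lists include them.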

Additional observations from a re-analysis of the deposited data

How the results depend on the processing

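The 10 clock genes kept the sign of their log2 fold change under each alternative fitted gene by gene (the crossed block was run for counts only, and BHLHE41 did not pass the filter of 5 CPM), as did the tested genes named by rule outside them, apart from TMEM165 at 0.00 without Vector 1. BHLHE40 and NR1D1 were called under each of these, as were BMAL1, CDKN1A, TSC22D3, KLF10, EPAS1, HES1 and HEY1. These fits reuse the same 4 libraries, and the members and lists were chosen with earlier results known. Nothing is therefore read from the repeated calls. For the sum of NR1D1 and THRA no fit was made, and its log2 ratio was -0.44. The clock genes called, all lower, numbered 3 of 10 as reported, where 6.39% of all genes tested were called. They numbered 5 with the GC trend removed (28.1% of all genes tested), with that and the replicate block together (17.5%) and with the crossed block (44.3%). Of the 69 network genes tested outside the 10, 10 were called as reported and 37 with the GC trend removed. With that and the replicate block 25 were called, and 49 with the crossed block, beside the same shares of all genes. All genes called numbered 811 (232 higher, 579 lower), 495 without Vector 1 to 1325 without CYR61 2, 1677 without a filter (648 higher, 1029 lower), 3566 with the GC trend removed (1886 higher, 1680 lower) and 2217 with that and the replicate block. Replicates sharing a number did not deviate together (correlation -0.38), so the number was not taken as a pairing. The replicate block gave 391 calls over all genes (3.08%) and 2 among the 10 clock genes. With it PER1 was not called, nor were CSNK1E (adjusted p = 0.247) and SFPQ (0.109). A block with crossed numbers, added after the data were seen, gave 5624 calls over all genes. PER2 was called without a filter (log2 fold change -0.54) and without CYR61 2 (-0.68). The cause of these changes was not tested. Depth limits BHLHE41, RORA, RORB, HLF and HEY2, at 0 to 58 counts a library.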
